A study of Homo sapiens with 8 samples.

Results

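Mitochondrial protein import genes encode the translocases, chaperones and peptidases that bring proteins made in the cytosol into mitochondria. They were taken here as every gene whose symbol starts with TOMM or TIMM followed by a digit, plus SAMM50, MTX1, MTX2, CHCHD4, GFER, PMPCA, PMPCB, PAM16, DNAJC19, OXA1L and AIFM1. The rule gave 35 of the 15597 genes in the files. Of these, 12 were assigned to the outer membrane, 14 to the inner membrane or the matrix behind it, and 9 to the intermembrane space. The 12 count TOMM34 with the TOM genes, though its protein is largely cytosolic. The RNA of all 35 genes was followed in SUDHL-4, a cell line from a diffuse large B-cell lymphoma. The 4 groups had 2 libraries each: cells overexpressing FDX1 (FDX1-OE) with 5 nM elesclomol (ES) for 48 h, control cells with the same ES, FDX1-OE cells with DMSO for 48 h, and control cells with DMSO. ES is a small molecule that carries copper into cells, and FDX1 encodes a mitochondrial ferredoxin, an iron-sulfur protein that hands on electrons. The genotype of the control cells is given as wild type. The construct behind FDX1-OE, whether the controls carry an empty vector, and whether either line is a single clone are unknown here.

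Nearly all mitochondrial proteins are encoded in the nucleus and enter through the TOM complex of the outer membrane, in which receptors hold the precursor and TOMM40 forms the channel. Proteins with a presequence go on through the TIM23 complex of the inner membrane, are pulled into the matrix by an ATP-driven motor, and lose the presequence to a peptidase. Carrier proteins are escorted across the intermembrane space by small TIM chaperones to the TIM22 complex, barrel proteins of the outer membrane are inserted by the SAM complex, and many small cysteine-rich proteins are folded and trapped in the intermembrane space by a disulfide relay.

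FDX1 itself had 82.5 and 84.8 FPKM in FDX1-OE cells under ES, against 21.3 and 21.4 FPKM in control cells under ES. Under DMSO it had 72.4 and 69.9 FPKM in FDX1-OE cells, against 25.6 and 22.2 FPKM in control cells. FPKM are reads scaled to the gene's length and the library's total. Library totals recovered from these values lay between 33435438 and 35883528 reads. The number of genes above 0 was 14004 and 14039 in the FDX1-OE ES libraries, 13409 and 13294 in the control ES libraries, 12955 and 12933 in the FDX1-OE DMSO libraries, and 12877 and 12996 in the control DMSO libraries, and its part in the results was not tested. All 8 listed B-cell markers lay between 24.8 and 910 FPKM in every library. Of 5 T- and NK-cell markers in the files, CD3E alone reached 1 FPKM, and their summed level was 7.60 to 8.48 FPKM in FDX1-OE ES, 7.10 to 7.41 FPKM in control ES, 5.23 to 7.19 FPKM in FDX1-OE DMSO and 4.10 to 5.03 FPKM in control DMSO libraries. None of 6 myeloid markers reached 1 FPKM, their sum being 0.445 to 0.510, 0.445 to 0.802, 0.124 to 0.133 and 0.227 to 0.254 FPKM in the same order of groups. Among 8 epithelial and stromal markers only DCN and PECAM1 did, and their sum was 11.7 to 13.0, 9.93 to 10.8, 13.3 to 15.8 and 12.4 to 14.2 FPKM in that order. The part of these marker levels in the results was not tested.

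Messages of 8 outer-membrane, 6 inner-membrane and 6 intermembrane-space import genes fell in FDX1-OE cells under ES, led by TIMM13, TOMM40, SAMM50, TOMM20 and TOMM70. A gene was called at a limma adjusted p below 0.05 over the 9805 genes that reached 1 FPKM in 2 libraries or more, and 34 of the 35 import genes were tested. Of these 34, 20 fell, 1 rose and 13 did not pass the test. That is 58.8% lower and 2.9% higher, beside 19.2% lower and 37.0% higher among all genes tested. The median log2 change was -0.21 for the 34 import genes and 0.09 for all genes tested, on the scale of log2(FPKM + 1), on which low genes show too small a change. Both ES libraries lay below both DMSO libraries for 23 import genes, against 29.0% of all genes tested. In bulk RNA, fewer cells of a kind and less RNA per cell cannot be told apart. Scaling the libraries by the median ratio over genes (RLE) moved the median of all genes by -0.13, so that 25 import genes fell and none rose. Under that scaling 2382 of all genes rose and 3105 fell, against 3632 and 1878 without it.

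**Figure D1:**
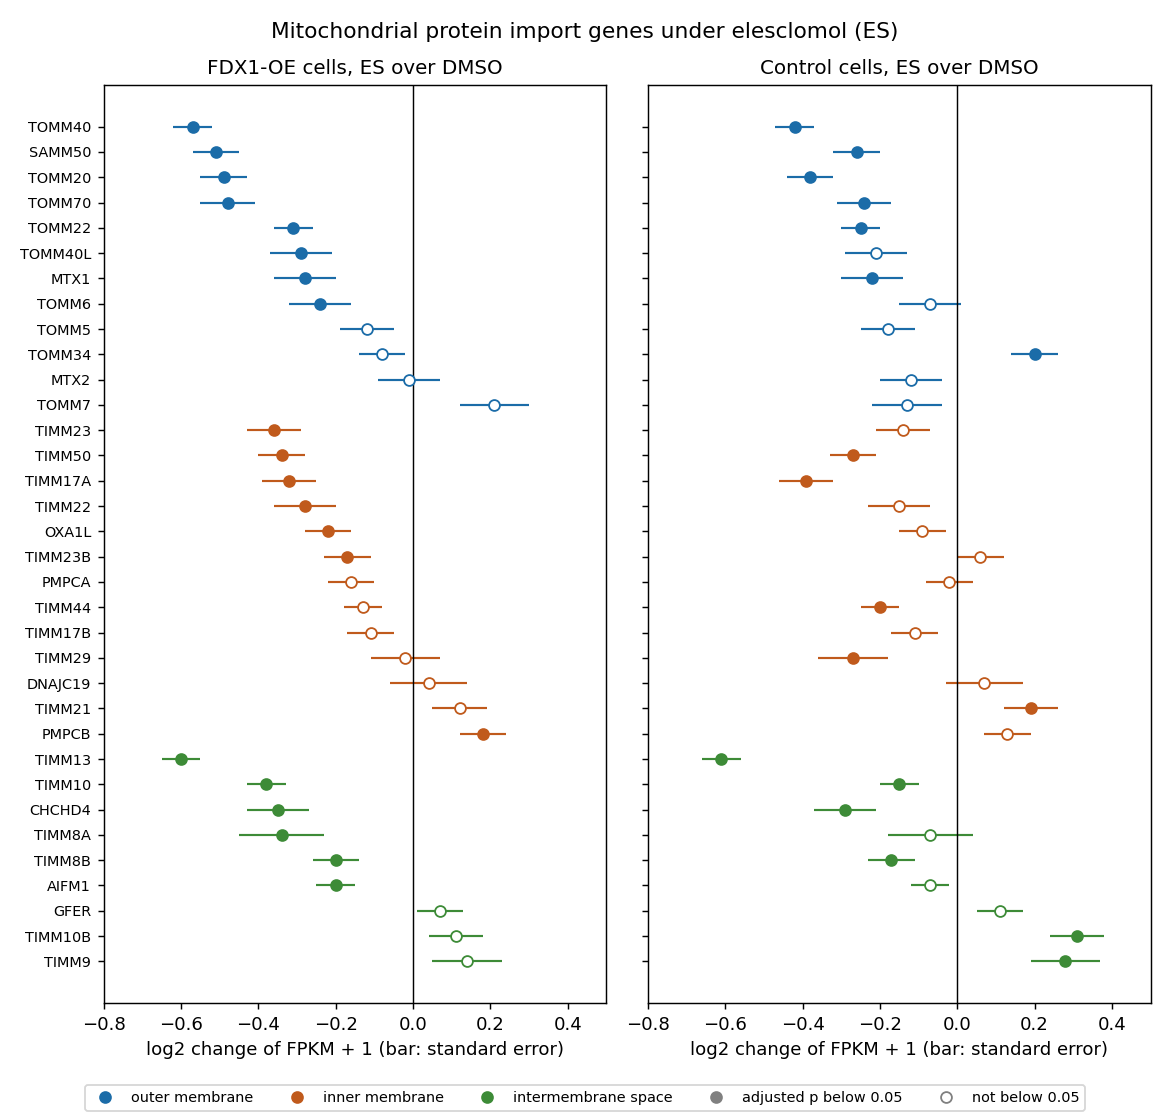
Change of the 34 tested import genes under ES, as log2 of FPKM + 1 in ES over DMSO libraries with its standard error from limma, for FDX1-OE cells (left) and control cells (right), ordered within each route by the change in FDX1-OE cells; filled points have an adjusted p below 0.05. Most filled points lie left of 0 in both panels, down to TIMM13 at -0.60 in FDX1-OE cells and -0.61 in control cells, while the filled points right of 0 (PMPCB in FDX1-OE cells; TOMM34, TIMM21, TIMM9 and TIMM10B in control cells) do so by at most 0.31 and, except TIMM10B, are not called after RLE scaling.

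At the outer membrane, 8 of 12 genes fell in FDX1-OE cells under ES and none rose, beside 19.2% and 37.0% of all genes. Those that fell included all 3 import receptors and the channel. TOMM20, the receptor for presequences, had 47.7 and 53.7 FPKM in FDX1-OE cells under ES, against 72.2 and 71.3 FPKM under DMSO. Both ES libraries lay below both DMSO libraries, a log2 change of -0.49 (SE 0.06, limma adjusted p = 0.0001). TOMM70, the receptor for carrier proteins and other precursors without a presequence, had 14.1 and 15.3 FPKM under ES and 20.2 and 21.3 FPKM under DMSO in the same cells. Here too the groups did not overlap, and the log2 change was -0.48 (SE 0.07, limma adjusted p = 0.000279). TOMM22, the central receptor that organizes the complex, had 42.0 and 44.5 FPKM under ES and 53.9 and 53.5 FPKM under DMSO in FDX1-OE cells, a log2 change of -0.31 (SE 0.05, limma adjusted p = 0.000606). The annotation names 4 pseudogene copies of TOMM20 and 6 of TOMM22, and how reads shared with them were counted is uncertain. The same holds for 4 copies of CHCHD4 and 9 of DNAJC19.

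TOMM40, the pore-forming subunit, had 113.2 and 111.1 FPKM in FDX1-OE cells under ES, against 174.1 and 159.9 FPKM under DMSO. At 0.674-fold on the FPKM + 1 scale, this was the deepest fall at the outer membrane (log2 change -0.57, SE 0.05, limma adjusted p = 1.38e-05). Its close homologue TOMM40L was expressed far lower, at 12.2 and 10.5 FPKM under ES and 13.8 and 14.3 FPKM under DMSO. The log2 change of TOMM40L was -0.29 (SE 0.08, limma adjusted p = 0.013), and the call was lost without FDX1-OE DMSO replicate 2 or without FDX1-OE ES replicate 2, where the change was -0.19.

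The 3 small TOM subunits, which steady the channel, were among the most abundant import messages and differed from each other. TOMM5 and TOMM6 overlap other protein-coding genes on the same strand in the annotation. TOMM6 had 137.6 and 163.5 FPKM in FDX1-OE cells under ES and 176.2 and 179.4 FPKM under DMSO, a log2 change of -0.24 (SE 0.08, limma adjusted p = 0.0263). That value turned on FDX1-OE ES replicate 1, without which it was -0.12 and not called, and the call was also lost without either FDX1-OE DMSO library. TOMM5 had 92.6 and 111.2 FPKM under ES and 108.0 and 112.4 FPKM under DMSO, and its groups overlapped (log2 change -0.12, limma adjusted p = 0.197). It was called lower after RLE scaling, at -0.26, and without FDX1-OE ES replicate 2, at -0.25. TOMM7 had 158.7 and 168.9 FPKM under ES, against 151.4 and 131.2 FPKM under DMSO. It was the only TOM subunit with ES libraries above the DMSO libraries in FDX1-OE cells, and the difference did not pass the test (log2 change 0.21, SE 0.09, limma adjusted p = 0.0692). After RLE scaling the change of TOMM7 was 0.07, while voom on recovered reads called it higher, at 0.22. TOMM34, a largely cytosolic cochaperone of precursors, had 46.7 and 49.2 FPKM under ES and 48.9 and 52.6 FPKM under DMSO in FDX1-OE cells, with overlap between the groups (log2 change -0.08, limma adjusted p = 0.3; -0.22 and called after RLE scaling).

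SAMM50, the core of the complex that inserts barrel proteins such as TOMM40 into the outer membrane, had 41.0 and 43.2 FPKM in FDX1-OE cells under ES, against 58.9 and 62.2 FPKM under DMSO. The ES libraries were lower by far more than the replicates differed (log2 change -0.51, SE 0.06, limma adjusted p = 4.9e-05). SAMM50 overlaps PNPLA3 on the same strand in the annotation. Of its partners, MTX1 (metaxin 1) had 8.44 and 9.34 FPKM under ES and 11.02 and 10.92 FPKM under DMSO in FDX1-OE cells. MTX1 thus fell (log2 change -0.28, SE 0.08, limma adjusted p = 0.0122), a call lost on leaving out replicate 1 of either FDX1-OE group. MTX2 (metaxin 2) had 19.4 and 23.2 FPKM under ES and 22.5 and 20.3 FPKM under DMSO, with overlap between the groups (log2 change -0.01, limma adjusted p = 0.914).

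Promoter sequence is shown for the 4 import genes that fell under ES in both FDX1-OE and control cells and hold an ETS motif. It is also shown for PMPCB, the import gene that rose in FDX1-OE cells. Each run is the 250 bases before the gene's start, 5′ to 3′ on the gene's strand, from RefSeq on GRCh38.p14, a later build than the hg19 named in the submitters' processing notes. They lie at chr1:235128838-235129087 (TOMM20, minus strand), chr3:100401090-100401339 (TOMM70, minus strand), chr11:57530755-57531004 (TIMM10, minus strand), chr19:2427587-2427836 (TIMM13, minus strand) and chr7:103297185-103297434 (PMPCB, plus strand). Capitals mark matches, on either strand, to any of 5 motifs: the ETS motif CCGGAAG, the NRF1 half-site TGCGCA, the E-box CACGTG, the ATF4 element TGATGCAA and the metal response element TGCACNC.
TOMM20 promoter: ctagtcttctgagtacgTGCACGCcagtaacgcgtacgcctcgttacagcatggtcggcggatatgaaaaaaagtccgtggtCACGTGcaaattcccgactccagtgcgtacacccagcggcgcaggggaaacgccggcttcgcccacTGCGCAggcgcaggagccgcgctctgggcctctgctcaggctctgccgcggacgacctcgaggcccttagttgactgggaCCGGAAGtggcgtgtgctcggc
TOMM70 promoter: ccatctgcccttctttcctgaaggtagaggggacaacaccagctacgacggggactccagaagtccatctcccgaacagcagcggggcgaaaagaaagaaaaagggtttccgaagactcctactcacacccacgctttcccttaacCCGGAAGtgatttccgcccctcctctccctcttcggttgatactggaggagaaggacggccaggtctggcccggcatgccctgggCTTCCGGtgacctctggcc
TIMM10 promoter: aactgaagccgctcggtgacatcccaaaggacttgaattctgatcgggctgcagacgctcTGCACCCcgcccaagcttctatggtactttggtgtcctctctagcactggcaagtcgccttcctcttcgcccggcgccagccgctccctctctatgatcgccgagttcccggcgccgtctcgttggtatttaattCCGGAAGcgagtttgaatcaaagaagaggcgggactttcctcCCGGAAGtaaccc
TIMM13 promoter: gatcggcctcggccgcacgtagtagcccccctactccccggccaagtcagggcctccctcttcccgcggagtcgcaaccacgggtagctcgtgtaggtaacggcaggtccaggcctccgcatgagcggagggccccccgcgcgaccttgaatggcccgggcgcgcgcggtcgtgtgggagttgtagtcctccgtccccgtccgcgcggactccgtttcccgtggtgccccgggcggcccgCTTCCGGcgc
PMPCB promoter: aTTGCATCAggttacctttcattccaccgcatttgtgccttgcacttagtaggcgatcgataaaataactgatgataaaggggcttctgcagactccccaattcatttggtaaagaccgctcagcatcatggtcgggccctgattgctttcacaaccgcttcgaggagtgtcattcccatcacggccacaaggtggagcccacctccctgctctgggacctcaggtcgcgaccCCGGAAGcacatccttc
In these 5 promoters no match overlapped another. RefSeq promoters were matched by symbol for 33 of the 35 import genes, all but TOMM5 and TIMM8B, and for 12367 genes of the files. The ETS motif was in 10 of the 33 import promoters, against 13.9% of all 12367. An NRF1 half-site was in 9 of 33, against 10.3% of all. The E-box was in that of TOMM20 alone, against 8.39% of all, the metal response element in 4, against 9.78%, and the ATF4 element in those of TIMM22 and PMPCB, against 0.509%. The ETS motif was in 7 of the 19 matched genes that fell in FDX1-OE cells and in 2 of the 12 that were not called. The 7 include both TIMM23 and its near-identical copy TIMM23B. For the NRF1 half-site these counts were 6 of 19 and 2 of 12, and for the metal response element 3 and 1. Of the other genes that fell in both FDX1-OE and control cells, TOMM22, TOMM40, SAMM50, MTX1, TIMM17A, TIMM50 and CHCHD4 had no ETS match. TIMM8B had no matched promoter. The matches describe letters in a window and were not tested.

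At the inner membrane, 6 of 13 tested genes fell in FDX1-OE cells under ES and 1 rose, beside 19.2% and 37.0% of all genes. PAM16, a regulator of the import motor, was the gene that was not tested. It had 0.426 to 1.51 FPKM, or 8 to 28 reads, over the 8 libraries, and its exons are shared with the CORO7-PAM16 readthrough gene in the annotation. TIMM23, which forms the presequence channel, had 59.7 and 69.0 FPKM in FDX1-OE cells under ES, against 83.0 and 82.6 FPKM under DMSO. It showed the deepest fall of this membrane (log2 change -0.36, SE 0.07, limma adjusted p = 0.00097). TIMM23B, a near-identical copy, had 10.1 and 9.86 FPKM under ES and 11.7 and 11.1 FPKM under DMSO (log2 change -0.17, SE 0.06, limma adjusted p = 0.0353). How the authors' counting divided reads between the 2 copies is uncertain, and the TIMM23B call was lost without any of the 4 FDX1-OE libraries.

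TIMM50, the receptor of the TIM23 complex, had 47.2 and 50.1 FPKM in FDX1-OE cells under ES, against 62.8 and 60.4 FPKM under DMSO, and it fell (log2 change -0.34, SE 0.06, limma adjusted p = 0.000505). TIMM17A and TIMM17B are alternative forms of another core subunit, and only TIMM17A was called. TIMM17A had 36.4 and 37.6 FPKM under ES and 45.3 and 47.8 FPKM under DMSO in FDX1-OE cells (log2 change -0.32, SE 0.07, limma adjusted p = 0.00188). TIMM17B had 27.8 and 29.8 FPKM under ES and 32.5 and 29.96 FPKM under DMSO (log2 change -0.11, SE 0.06, limma adjusted p = 0.142; -0.25 and called after RLE scaling). The ratio of TIMM17A to TIMM17B, per length, was 1.31 and 1.26 in FDX1-OE ES libraries and 1.33 and 1.28 in control ES libraries, against 1.39 and 1.60 in FDX1-OE DMSO libraries and 1.65 and 1.55 in control DMSO libraries. Every ES library thus had the lower ratio, and the difference between the forms was not tested.

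Further TIM23 and motor genes did not pass the test in FDX1-OE cells. TIMM44, which tethers the motor to the channel, had 69.0 and 67.9 FPKM under ES and 76.1 and 73.6 FPKM under DMSO (log2 change -0.13, SE 0.05, limma adjusted p = 0.0551; -0.27 and called after RLE scaling). TIMM21, which links the TIM23 complex to the respiratory chain, had 13.7 and 13.0 FPKM under ES and 11.6 and 12.9 FPKM under DMSO (log2 change 0.12, limma adjusted p = 0.158; -0.02 after RLE scaling). DNAJC19, a J-protein of the motor, had 23.3 and 29.6 FPKM under ES and 27.0 and 24.0 FPKM under DMSO, so its groups overlapped (log2 change 0.04, limma adjusted p = 0.742; -0.10 after RLE scaling).

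Of the TIM22 carrier translocase, TIMM22, its channel subunit, had 6.79 and 8.13 FPKM in FDX1-OE cells under ES, against 9.42 and 8.995 FPKM under DMSO. TIMM22 fell (log2 change -0.28, SE 0.08, limma adjusted p = 0.0139), but without FDX1-OE ES replicate 1 the change was -0.16 and the call was lost, as it was without FDX1-OE DMSO replicate 1. TIMM29, a second subunit, had 19.5 and 17.7 FPKM under ES and 20.5 and 17.4 FPKM under DMSO, with overlap (log2 change -0.02, limma adjusted p = 0.836). OXA1L, the insertase that places proteins into the inner membrane from the matrix side, had 59.0 and 61.7 FPKM under ES and 68.5 and 72.5 FPKM under DMSO in FDX1-OE cells. It fell (log2 change -0.22, SE 0.06, limma adjusted p = 0.00812), a call lost without DMSO replicate 2 or ES replicate 1 of these cells.

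The subunits of the presequence peptidase lay on opposite sides of 0. PMPCB, the catalytic subunit, which overlaps DNAJC2 on the opposite strand, had 29.99 and 32.5 FPKM in FDX1-OE cells under ES, against 26.6 and 28.2 FPKM under DMSO. It was the import gene that rose there (log2 change 0.18, SE 0.06, limma adjusted p = 0.0272). That call was lost without FDX1-OE DMSO replicate 1, without FDX1-OE ES replicate 2 and after RLE scaling, where the change was 0.04. PMPCA, the substrate-binding subunit, had 31.4 and 29.02 FPKM under ES and 35.5 and 32.2 FPKM under DMSO (log2 change -0.16, SE 0.06, limma adjusted p = 0.0501; -0.30 and called after RLE scaling). The ratio of PMPCA to PMPCB was 1.045 and 0.893 in FDX1-OE ES libraries and 1.01 and 1.01 in control ES libraries, against 1.33 and 1.14 in FDX1-OE DMSO libraries and 1.10 and 1.16 in control DMSO libraries.

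In the intermembrane space, 6 of 9 genes fell in FDX1-OE cells under ES and none rose, beside 19.2% and 37.0% of all genes. TIMM13, which with TIMM8A escorts a subset of precursors, had 47.9 and 46.7 FPKM in FDX1-OE cells under ES, against 73.4 and 71.4 FPKM under DMSO. This was the deepest fall among all import genes, to 0.658-fold (log2 change -0.60, SE 0.05, limma adjusted p = 6.74e-06). In the annotation TIMM13 overlaps LMNB2 on the same strand and TMPRSS9 on the opposite strand, so reads of these genes could be mixed. TIMM8A had 3.76 and 3.59 FPKM under ES and 4.96 and 4.89 FPKM under DMSO in FDX1-OE cells (log2 change -0.34, SE 0.11, limma adjusted p = 0.0218), and the call was lost without any of the 4 FDX1-OE libraries. TIMM8B, its homologue, had 66.8 and 64.3 FPKM under ES and 75.8 and 74.8 FPKM under DMSO (log2 change -0.20, SE 0.06, limma adjusted p = 0.0161). The TIMM8B call was lost without FDX1-OE ES replicate 2 or either FDX1-OE DMSO library, and TIMM8B overlaps SDHD on the opposite strand.

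TIMM9 and TIMM10 form the main carrier chaperone together, and of the pair only TIMM10 was called in FDX1-OE cells. TIMM10 had 24.7 and 23.6 FPKM in FDX1-OE cells under ES, against 31.6 and 31.8 FPKM under DMSO, and fell (log2 change -0.38, SE 0.05, limma adjusted p = 0.000159). TIMM9 had 19.5 and 19.7 FPKM under ES and 15.9 and 19.5 FPKM under DMSO, so the groups met, at 19.48 under ES and 19.50 under DMSO (log2 change 0.14, SE 0.09, limma adjusted p = 0.173). The ratio of TIMM10 to TIMM9 was 1.27 and 1.198 in FDX1-OE ES libraries and 1.39 and 1.48 in control ES libraries, against 1.99 and 1.63 in FDX1-OE DMSO libraries and 2.02 and 1.90 in control DMSO libraries. All 4 ES libraries lay below all 4 DMSO libraries in this ratio, which was not tested. The same order held for TIMM13 to TIMM8A and TIMM23 to TIMM23B. In the ratios of MTX1 to MTX2, TIMM8A to TIMM8B and TOMM40 to TOMM40L, ES and DMSO libraries overlapped. TIMM10B, which joins TIMM9 and TIMM10 at the TIM22 complex, had 11.1 and 10.8 FPKM under ES and 9.52 and 10.6 FPKM under DMSO in FDX1-OE cells (log2 change 0.11, SE 0.07, limma adjusted p = 0.196; -0.02 after RLE scaling).

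In the disulfide relay, CHCHD4 and AIFM1 fell in FDX1-OE cells under ES and GFER did not pass the test. CHCHD4, the oxidoreductase that puts disulfide bonds into incoming proteins, had 19.1 and 19.4 FPKM in FDX1-OE cells under ES, against 26.3 and 23.4 FPKM under DMSO. It fell (log2 change -0.35, SE 0.08, limma adjusted p = 0.0041). GFER, the sulfhydryl oxidase that reoxidizes CHCHD4, had 16.1 and 16.2 FPKM under ES and 15.7 and 15.0 FPKM under DMSO (log2 change 0.07, SE 0.06, limma adjusted p = 0.35; -0.07 after RLE scaling). AIFM1, the flavoprotein that binds CHCHD4 and helps to bring it into mitochondria, had 30.7 and 30.1 FPKM under ES and 34.5 and 35.5 FPKM under DMSO (log2 change -0.20, SE 0.05, limma adjusted p = 0.00773; not called without FDX1-OE DMSO replicate 2). The ratio of CHCHD4 to GFER was 1.19 and 1.195 in FDX1-OE ES libraries and 1.12 and 1.35 in control ES libraries, against 1.68 and 1.56 in FDX1-OE DMSO libraries and 1.75 and 1.56 in control DMSO libraries.

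**Figure D2:**
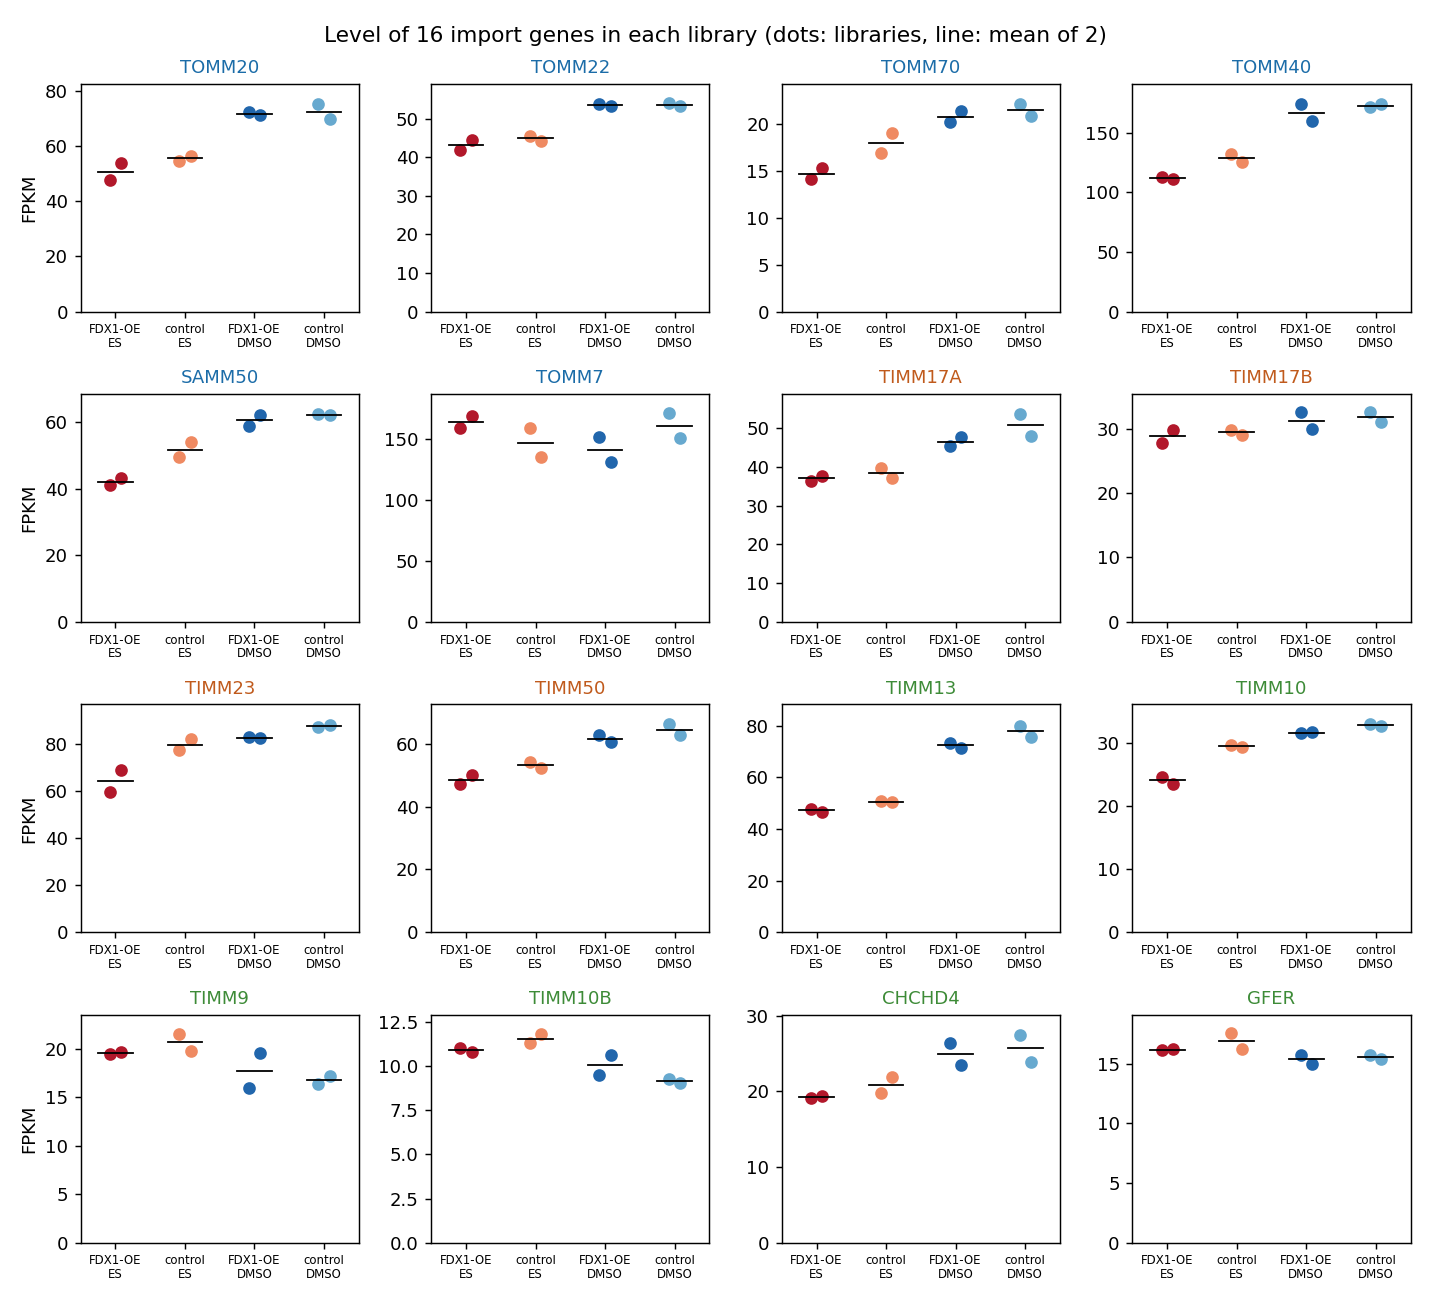
FPKM of 16 import genes in each library, with the groups left to right as FDX1-OE ES, control ES, FDX1-OE DMSO and control DMSO, dots for libraries and a line for the mean of 2; every axis starts at 0. TOMM20, TOMM40, SAMM50, TIMM13 and CHCHD4 were lower in both ES groups than in both DMSO groups, while the means of TIMM9, TIMM10B and GFER were higher under ES than under DMSO in both genotypes (in FDX1-OE cells not so for TIMM10B and GFER after RLE scaling).

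In control cells under ES, TIMM13, TOMM40, TIMM17A and TOMM20 led the falls. Of the 34 genes tested, 14 fell, 4 rose and 16 did not pass the test, against 12.9% of all genes that fell and 25.5% that rose. RLE scaling gave 21 lower and 1 higher import gene, and over all genes 2124 lower and 1694 higher, against 1269 and 2498 without it. The libraries did not overlap, with ES lower, for 23 import genes and for 26.1% of all genes. TIMM13 again fell deepest, with 50.8 and 50.3 FPKM in control cells under ES, against 80.1 and 75.7 FPKM under DMSO (log2 change -0.61, SE 0.05, limma adjusted p = 2.18e-05). TOMM40 had 132.4 and 126.0 FPKM under ES and 171.6 and 174.1 FPKM under DMSO in control cells (log2 change -0.42, SE 0.05, limma adjusted p = 0.000311). TIMM17A, with 39.8 and 37.1 FPKM under ES and 53.6 and 48.0 FPKM under DMSO, fell by 0.39 on the log2 scale (SE 0.07, limma adjusted p = 0.00124). In TOMM20 the control libraries had 54.7 and 56.4 FPKM under ES and 75.1 and 69.8 FPKM under DMSO (log2 change -0.38, SE 0.06, limma adjusted p = 0.00134).

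The other receptors and the SAM core fell less far in control cells. TOMM22 had 45.7 and 44.2 FPKM under ES and 54.2 and 53.3 FPKM under DMSO (log2 change -0.25, SE 0.05, limma adjusted p = 0.00383). SAMM50 had 49.5 and 54.1 FPKM under ES, against 62.3 and 62.2 FPKM under DMSO (log2 change -0.26, SE 0.06, limma adjusted p = 0.00631). TOMM70 had 16.9 and 19.03 FPKM under ES, against 22.1 and 20.8 FPKM under DMSO, and its change (-0.24, SE 0.07, limma adjusted p = 0.0219) was -0.16 and not called without control ES replicate 1. For these 3 genes no ES library reached a DMSO library. At the inner membrane TIMM50 had 54.0 and 52.2 FPKM under ES and 66.2 and 62.7 FPKM under DMSO (log2 change -0.27, SE 0.06, limma adjusted p = 0.00351). TIMM44 had 70.4 and 66.2 FPKM under ES and 78.4 and 78.8 FPKM under DMSO (log2 change -0.20, SE 0.05, limma adjusted p = 0.0111), and TIMM29 had 17.4 and 15.5 FPKM, against 20.2 and 19.8 FPKM (-0.27, SE 0.09, adjusted p = 0.0287). CHCHD4, in the intermembrane space, had 19.7 and 21.8 FPKM under ES, against 27.5 and 23.9 FPKM under DMSO (log2 change -0.29, SE 0.08, limma adjusted p = 0.018). TIMM10 had 29.7 and 29.4 FPKM under ES and 33.0 and 32.7 FPKM under DMSO, the smallest of the called falls in control cells (log2 change -0.15, SE 0.05, limma adjusted p = 0.0457).

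Several of the calls in control cells rested on single libraries. The 4 that rose were TIMM10B (log2 change 0.31, SE 0.07, limma adjusted p = 0.00573), TIMM9 (0.28, SE 0.09, adjusted p = 0.0253), TOMM34 (0.20, SE 0.06, adjusted p = 0.0273) and TIMM21 (0.19, SE 0.07, adjusted p = 0.0442). TIMM10B had 11.3 and 11.8 FPKM under ES and 9.27 and 9.03 FPKM under DMSO in control cells, and alone of the 4 stayed called after RLE scaling, at 0.23. TIMM9 had 21.5 and 19.8 FPKM under ES, against 16.4 and 17.2 FPKM under DMSO, and TIMM21 had 14.7 and 14.1 FPKM, against 12.6 and 12.4 FPKM. In the annotation TIMM10B overlaps ARFIP2 and TIMM9 overlaps KIAA0586, each on the opposite strand. TIMM10B also overlaps AC084337.2, a protein-coding gene, on the same strand. Without control DMSO replicate 1 the falls numbered 8, and without control ES replicate 2 they numbered 9. Without control DMSO replicate 2 a single rise was left. Single falls that shrank by over 1.5 times on leaving out a library were those of MTX1 (-0.13 without control ES replicate 2), TIMM8B (-0.11 without control ES replicate 2) and CHCHD4 (-0.19 without control DMSO replicate 1), and none of these was then called. The other falls in control cells that were lost without some library were those of TOMM70, SAMM50, TIMM44, TIMM29 and TIMM10.

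The ES comparisons in FDX1-OE and in control cells contrast separate libraries. Both take their spread from the fit of all 8 libraries, so their calls are not independent. Of the import genes that fell, 12 fell in both, which is 12 of the 20 in FDX1-OE cells and 12 of the 14 in control cells; over all genes, 1010 fell in both, of 1878 and 1269. The 12 were TOMM20, TOMM22, TOMM40, TOMM70, SAMM50, MTX1, TIMM17A, TIMM50, TIMM8B, TIMM10, TIMM13 and CHCHD4. Of these, only TOMM20, TOMM22, TOMM40, TIMM17A, TIMM50 and TIMM13 stayed called under every setting tried in both genotypes. In control cells MTX1, TIMM8B and TIMM10 were not called with voom on recovered reads or with the comparison's own 4 libraries. TIMM44 and TIMM29 were called lower in control cells and not in FDX1-OE cells, 8 genes the other way round, and no gene was called in opposite directions. The change was more negative in FDX1-OE than in control cells for 26 of 34 import genes and for 4394 of all 9805 genes.

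**Figure D3:**
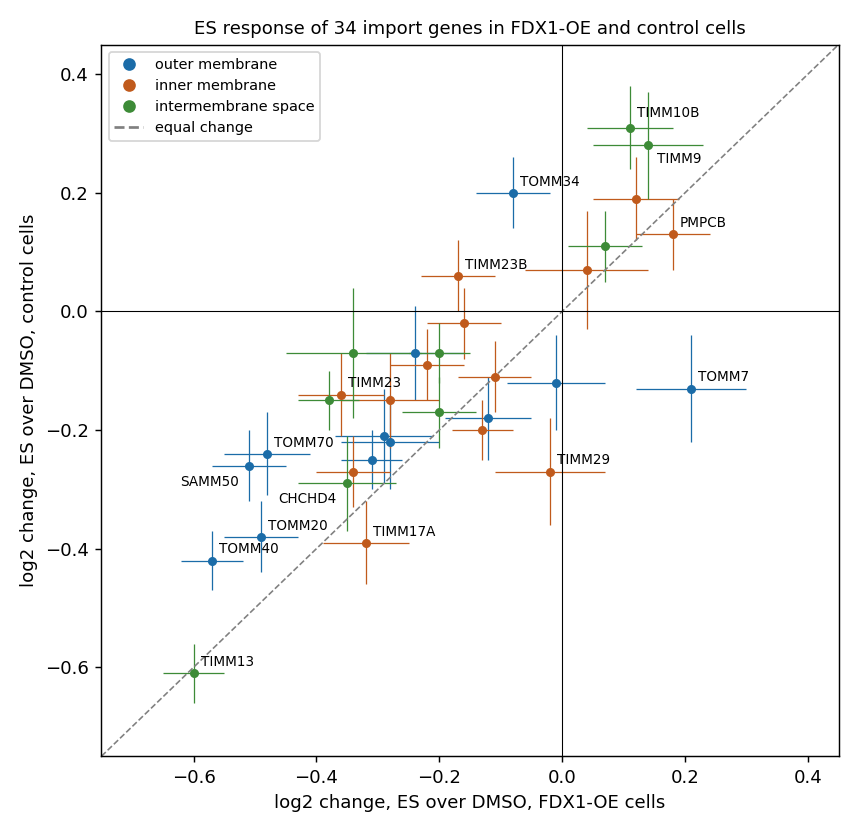
Log2 change of each of the 34 import genes in ES over DMSO libraries, in FDX1-OE cells on the horizontal axis and control cells on the vertical axis, with standard errors; the dashed line marks equal change. TIMM13 lies on the line at -0.60 and -0.61, TOMM40, SAMM50 and TOMM70 lie above it, with deeper falls in FDX1-OE cells, and TOMM7, TIMM29 and TIMM17A lie below it.

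Over the 3 routes, the outer membrane had the deepest median change under ES. In FDX1-OE cells the median log2 change was -0.28 for 12 outer-membrane genes, -0.16 for 13 inner-membrane genes and -0.20 for 9 intermembrane-space genes. Control cells had medians of -0.22, -0.11 and -0.07 in the same order, against 0.06 over all genes tested. There 6 outer-membrane genes fell and 1, TOMM34, rose, 4 inner-membrane genes fell and 1 rose, and 4 intermembrane-space genes fell and 2 rose. The mean log2(FPKM + 1) of the outer-membrane genes, relative to control DMSO libraries, was -0.36 and -0.26 in FDX1-OE ES, -0.19 and -0.19 in control ES, -0.04 and -0.05 in FDX1-OE DMSO, and 0.02 and -0.02 in control DMSO libraries. Inner-membrane genes gave -0.21 and -0.15, -0.09 and -0.09, -0.02 and -0.06, and 0.02 and -0.02 in the same order of groups. Intermembrane-space genes gave -0.19 and -0.21, -0.05 and -0.10, -0.02 and 0.00, and 0.04 and -0.04. In each route both FDX1-OE ES libraries were below both control ES libraries, which in turn lay below all 4 DMSO libraries. The differences between routes were not tested.

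**Figure D4:**
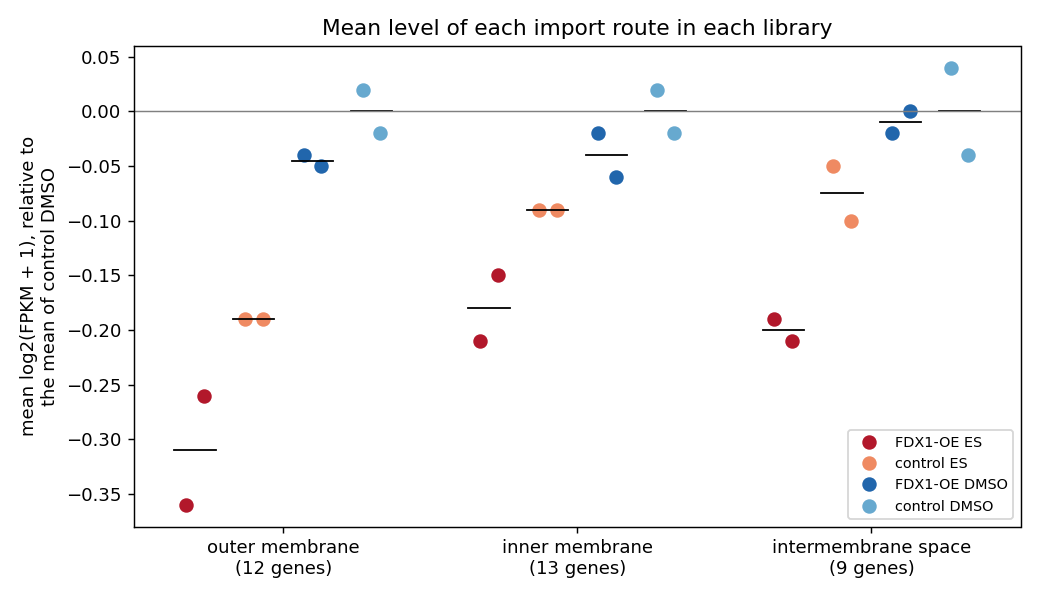
Mean log2(FPKM + 1) of the tested genes of each route in each library, relative to the mean of the control DMSO libraries, with groups left to right as FDX1-OE ES, control ES, FDX1-OE DMSO and control DMSO, dots for libraries and a line for the mean of 2. The order of the groups was alike in the 3 routes, and the outer-membrane genes of the FDX1-OE ES libraries stood lowest, at -0.36 and -0.26.

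FDX1-OE against control cells under ES gave 6 lower genes, none higher and 28 not called. Over all genes, 7.78% were lower and 13.6% higher. RLE scaling gave 13 lower import genes and, over all genes, 1273 lower and 978 higher, against 763 and 1331 without it, and without the filter on low values 3 import genes were lower. FDX1-OE libraries lay wholly below control libraries for 20 import genes, against 25.4% of all genes. This comparison shares the FDX1-OE ES libraries with the ES comparison in FDX1-OE cells and the control ES libraries with that in control cells, so it is no separate support for either. TIMM23 had 59.7 and 69.0 FPKM in FDX1-OE cells and 77.5 and 82.2 FPKM in control cells under ES (log2 change -0.31, SE 0.07, limma adjusted p = 0.00932). SAMM50 had 41.0 and 43.2 FPKM in FDX1-OE cells, against 49.5 and 54.1 FPKM in control cells (log2 change -0.29, SE 0.06, limma adjusted p = 0.00757). TIMM10 differed with almost no spread, at 24.7 and 23.6 FPKM in FDX1-OE cells and 29.7 and 29.4 FPKM in control cells (log2 change -0.28, SE 0.05, limma adjusted p = 0.00502). TOMM70, TOMM34 and TOMM40 were lower too, with log2 changes of -0.28, -0.23 and -0.20. Only the TIMM10 call was kept under every setting tried: without control ES replicate 2, or without FDX1-OE ES replicate 1, it was the single call left.

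Between FDX1-OE and control cells under DMSO no import gene was called by limma, 1 had an unadjusted p below 0.05 (MTX2, log2 change -0.18), and voom on recovered reads also called none. Over all genes, 0.510% were called in this comparison, and 711 of 9805 had an unadjusted p below 0.05. The log2 changes ran from -0.19 for TOMM7 to 0.12 for TIMM10B. Nor was any import gene called for the interaction, the difference between the ES responses of FDX1-OE and control cells, for which 4.30% of all genes were called. By unadjusted p, 7 of the 34 import genes tested were below 0.05, beside 2173 of all 9805 genes tested. Voom again called no import gene. The smallest adjusted p was 0.096, for TOMM34 (log2 difference -0.29, SE 0.09), followed by TIMM10 (-0.23, SE 0.07, limma adjusted p = 0.104) and SAMM50 (-0.25, SE 0.08, limma adjusted p = 0.114). TOMM34 had 46.7 and 49.2 FPKM under ES and 48.9 and 52.6 FPKM under DMSO in FDX1-OE cells, and 54.5 and 58.0 FPKM under ES and 50.7 and 46.7 FPKM under DMSO in control cells. The deeper falls in FDX1-OE cells were therefore not shown to differ from those in control cells for any single import gene.

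Genes that work next to the import machinery moved in different ways under ES. Of 7 genes of the import motor and matrix folding, 5 fell in FDX1-OE cells and 4 in control cells, and none rose, beside 19.2% of all genes that fell and 37.0% that rose in FDX1-OE cells and 12.9% and 25.5% in control cells. HSPD1, the matrix chaperonin, averaged 373.2 ± 6.59 FPKM under ES and 552.3 ± 2.62 FPKM under DMSO in FDX1-OE cells (SD, n = 2 each; log2 change -0.56, limma adjusted p = 2.02e-05). Its partner HSPE1 averaged 14.03 ± 2.18 and 20.6 ± 0.942 FPKM in the same groups (log2 change -0.53, limma adjusted p = 0.00405), and GRPEL1, the nucleotide exchange factor of the motor, 27.5 ± 1.23 and 39.4 ± 0.312 FPKM (log2 change -0.51, limma adjusted p = 5.49e-05). Among 8 tested processing and insertion factors none fell and 2 rose in FDX1-OE cells, or 25.0% against 37.0% of all genes. They were PITRM1, the peptidase that clears cut presequences, and MTCH1, an outer-membrane insertase homologue, higher by 0.33 and 0.30 on the log2 scale (limma adjusted p = 0.000702 and 0.00152). The neighbouring genes named here and below were not followed under RLE scaling, which moved the median of all genes by -0.13 in FDX1-OE cells.

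Of 19 tested cargo genes of the disulfide relay, 5 were higher and 5 lower in FDX1-OE cells, or 26.3% each, against 37.0% and 19.2% of all genes. In control cells 5 were higher (26.3%, against 25.5% of all genes) and 4 lower (21.1%, against 12.9%). CHCHD10, a cristae-associated protein, averaged 36.0 ± 3.14 FPKM under ES and 56.9 ± 0.908 FPKM under DMSO in FDX1-OE cells (SD, n = 2 each; log2 change -0.65, limma adjusted p = 1.83e-05). CMC4 averaged 26.0 ± 4.19 and 16.9 ± 0.524 FPKM in the same groups (log2 change 0.58, limma adjusted p = 0.00047), and CHCHD7 43.6 ± 5.72 and 29.9 ± 1.54 FPKM (log2 change 0.52, limma adjusted p = 0.000379). None of 5 genes of the MICOS complex, which shapes the cristae, was called in FDX1-OE cells, against 37.0% higher and 19.2% lower of all genes. There 1 had an unadjusted p below 0.05, beside 6028 of all 9805 genes tested. In control cells 1 MICOS gene was higher and 2 were lower. Of 8 mitochondrial proteases, 5 fell and 1 rose in FDX1-OE cells (62.5% and 12.5%, against 19.2% and 37.0% of all genes), and 2 fell in control cells (25.0%, against 12.9%). CLPP, a matrix protease, averaged 84.2 ± 0.683 FPKM under ES and 105.5 ± 5.04 FPKM under DMSO in FDX1-OE cells, and 102.0 ± 0.449 FPKM under ES and 101.7 ± 1.45 FPKM under DMSO in control cells (SD, n = 2 each). It was the single gene of these 5 lists called for the interaction (limma adjusted p = 0.0343). The call of CLPP was not followed under the other settings. HTRA2, a protease of the intermembrane space, fell by 0.32 on the log2 scale and SPG7, of an inner-membrane protease, rose by 0.28 in FDX1-OE cells (limma adjusted p = 0.00245 and 0.00264).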

How the data were processed

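Total RNA of SUDHL-4 cells was sequenced in 8 libraries, 2 in each of 4 groups. HISAT2, HTSeq, R 3.2.0 and hg19 are named in the submitters' processing notes; their roles, the annotation and whether counting used strand are not given in the sources used. The deposited values are FPKM made by the authors for 15597 genes. The file headers state no unit, and it was read from the values, which gave whole reads for 100% of genes within 0.02 read. Floors in reads cover counting error only, and replicates of each group differed beyond it.

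From these values, log2(FPKM + 1) was fitted with limma 3.58.1 in R 4.3.3 (4 group means over 8 libraries, 4 residual and 6.6 prior degrees of freedom, mean trend) for the 9805 genes that reached 1 FPKM in 2 libraries or more. All tests were two-sided, with Benjamini-Hochberg adjustment over all genes tested. No label states that replicates are separate cultures, so a p-value reflects only the spread of these libraries, which may be technical. The test was checked on simulated data.

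Members, routes and lists were chosen with earlier results of these data known. Every member may be named; those given in full are, per route, up to 6 called genes with the largest change in FDX1-OE cells under ES, and paralogs or partners. Up to 3 called genes are named per neighbouring list. Alternatives were another pseudocount, no filter, RLE scaling, a replicate block, voom on recovered reads, the comparison's own 4 libraries, and leaving out each library. Overlapping genes and pseudogenes come from GENCODE on GRCh38. Not all are named above: TOMM70 overlaps LNP1, MTX1 overlaps THBS3 and GBAP1, and TIMM22 overlaps ABR, each on the opposite strand. Further import genes have such overlaps or pseudogene copies.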

Additional observations from a re-analysis of the deposited data

Results flagged for a closer look

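TIMM23B, the near-identical copy of TIMM23, was the import gene whose ES libraries all lay below the DMSO libraries in FDX1-OE cells and all above them in control cells. It had 10.1 and 9.86 FPKM under ES and 11.7 and 11.1 FPKM under DMSO in FDX1-OE cells, and 11.3 and 11.7 FPKM under ES and 10.8 and 11.1 FPKM under DMSO in control cells. The response in FDX1-OE cells less the response in control cells was -0.23 on the log2 scale (SE 0.09), and the test of this difference did not pass (limma adjusted p = 0.147). The change in control cells was 0.06 (limma adjusted p = 0.444), and after RLE scaling it was -0.02, so that the responses were no longer opposite. Reads of TIMM23 and TIMM23B may be divided between the copies by the counting, which was not tested.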

How the results depend on the processing

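The 45 calls of single import genes were each recomputed under 14 settings, 630 values in all; 529 stayed called in the same direction, 101 lost the call and 0 reversed. Calls kept under every setting were 11 of 21 for ES in FDX1-OE cells, 7 of 18 for ES in control cells and 1 of 6 for FDX1-OE under ES. For ES in FDX1-OE cells the 11 were TOMM20, TOMM22, TOMM40, TOMM70, SAMM50, TIMM17A, TIMM23, TIMM50, TIMM10, TIMM13 and CHCHD4. For ES in control cells the 7 were TOMM20, TOMM22, TOMM40, TIMM17A, TIMM50, TIMM13 and, as a rise, TIMM10B. The causes of lost calls were not tested.

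RLE scaling gave 0 higher import genes for ES in FDX1-OE cells and 1 for ES in control cells, 13 lower ones for FDX1-OE under ES, and 3105, 2124, 1273 and 274 lower genes overall for ES in FDX1-OE cells, ES in control cells, FDX1-OE under ES and the interaction, with 2382 higher for ES in FDX1-OE cells. Its route medians were -0.41, -0.30 and -0.34 for outer membrane, inner membrane and intermembrane space in FDX1-OE cells and -0.30, -0.20 and -0.15 in control cells. Without a filter, 9 import genes fell and 1 rose in control cells and 3 were lower for FDX1-OE under ES; 0 genes overall were lower and 2 higher for FDX1-OE under DMSO, and 18 lower and 158 higher for the interaction. With a pseudocount of 0.1 the interaction had 57 lower and 165 higher genes. Voom on recovered reads and the comparison's own 4 libraries each gave 2 higher import genes for ES in FDX1-OE cells; voom gave 71 higher genes for FDX1-OE under DMSO and 241 lower for the interaction, and the 4 libraries gave 14 lower for FDX1-OE under DMSO.

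With the replicate block, 2 import genes rose and 21 fell for ES in FDX1-OE cells, and 3 rose and 12 fell in control cells. Whether same-numbered libraries belong together is not known. Correlations of replicate deviations between groups ran from -0.18 to 0.181, and such values cannot settle whether these libraries shared a culture or batch.

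Leaving out each library in turn (a lone sample is then assumed to vary like the other groups) gave, for ES in FDX1-OE cells, 14 to 21 lower and 0 to 2 higher import genes; for ES in control cells, 8 to 16 lower and 1 to 4 higher, with 809 to 1281 genes lower overall; and for FDX1-OE under ES, 1 to 6 lower import genes, with 217 to 697 lower and 531 to 1247 higher overall. FDX1-OE under DMSO had 0 to 13 lower and 15 to 59 higher genes, and the interaction 6 to 154 lower and 66 to 476 higher. Medians ran from -0.34 to -0.24, -0.18 to -0.10 and -0.22 to -0.18 for the 3 routes in FDX1-OE cells and from -0.23 to -0.17, -0.13 to -0.08 and -0.16 to -0.05 in control cells.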
